A study of Mus musculus with 12 samples.

Results

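Binding regions of the bromodomain protein BRD2 were compared between RAW264.7 cells that had been left untreated and RAW264.7 cells kept for 4 h with 500 nM of the bromodomain inhibitor I-BET. RAW264.7 is an established macrophage-like cell line from the mouse that turns into osteoclasts when given the cytokine RANKL, and neither of these cultures received RANKL. Regions came from chromatin immunoprecipitation followed by sequencing (ChIP-seq), with 1 library for each group and no genetic change named in the labels. All regions of the 2 lists were taken, 578 from untreated and 1067 from I-BET cells, which together were 1645 of the 16188 regions in the 8 lists of the series. The other 6 lists are BRD2 with RANKL (50 ng/ml), BRD2 with RANKL and I-BET, and BRD3, a close relative of BRD2, in all 4 conditions. With 1 library for each group, an effect of I-BET and a difference between 2 libraries cannot be told apart, and no test between treatments was possible.

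BRD2 belongs to the BET family, whose paired bromodomains hold on to acetylated lysines in histone tails. I-BET compounds occupy the pocket that takes the acetyl-lysine. BET proteins are found at the promoters of active genes and at enhancers, where they help to bring in the machinery that starts and lengthens transcripts, and in macrophages BET inhibitors are known for damping inflammatory genes. A region in a peak list is a stretch of genome that passed the authors' thresholds. Its absence from a list says that it was not called there, and not that BRD2 was missing from it.

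Regions shared by at least 1 bp were called shared, and the rest untreated-side or I-BET-side. Before that, regions on chromosome M and regions over 3000 bp wide that lay over 1 kb from every protein-coding gene were set apart, along with any region overlapping one of them, which left 574 untreated and 1050 I-BET regions. The lists hold no read count, depth or signal height, so presence, position and width are what can be compared. All regions, those set apart included, covered 551 kb in untreated cells and 1206 kb in I-BET cells, with median widths of 828 bp and 858 bp. The I-BET list stood apart from the other 3 lists of I-BET-treated cells in its wide regions. In it 99 of 1067 regions (9.28%) reached 2000 bp, against 2.04% in BRD2 with RANKL and I-BET, 0.896% in BRD3 with I-BET and 0.422% in BRD3 with RANKL and I-BET. The 4 lists of cells without I-BET held 6.23% to 9.32% of such regions. Nothing in the peak lists checks the treatment label of this library, so every I-BET value here is that of the library labelled I-BET.

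The RAW264.7 label was checked against macrophage genes. Of 35 macrophage identity genes, 4 had a region within 1 kb of an end in untreated cells and 11 in I-BET cells. Over all protein-coding genes these shares were 2.26% and 3.79%. No gene in the 6 lists of T cell, B cell, fibroblast and osteoblast, epithelial, erythroid, or neutrophil and mast cell markers had one in either list. With 6 to 10 genes in each, a count of 0 allows shares of up to 30.8% to 45.9%, so these lists do not test the label.

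The sequences that follow are the 250 bases before the transcription start of 10 genes, as given in the RefSeq promoter table for GRCm38.p6. A BRD2 region overlapped the window from 250 bases before to 50 bases after each of these starts. They were chosen to show a sequence that recurs in these promoters, and how the promoters of 2 macrophage genes differ from it. Capitals mark the CGCG element TCTCGCGA, the ETS core CCGGAAG, the NRF1 motif GCATGCGC, the C/EBP motif TTGCNNAA and the TATA motif TATAAA, each on either strand. Rps19, Rpl10a and Rpl27a were bound in both lists, Rpl7a, Rps3a1 and Lyz1 in untreated cells only, and Rpl35, Rps15a, Brd2 and Ctss in I-BET cells only.
Rps19 (chr7:24884342-24884591, plus strand): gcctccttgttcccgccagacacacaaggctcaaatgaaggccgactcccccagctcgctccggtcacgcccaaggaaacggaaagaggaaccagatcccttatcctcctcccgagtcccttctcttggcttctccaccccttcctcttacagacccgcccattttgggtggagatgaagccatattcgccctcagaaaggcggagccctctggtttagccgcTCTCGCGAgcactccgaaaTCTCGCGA
Rpl10a (chr17:28328315-28328564, plus strand): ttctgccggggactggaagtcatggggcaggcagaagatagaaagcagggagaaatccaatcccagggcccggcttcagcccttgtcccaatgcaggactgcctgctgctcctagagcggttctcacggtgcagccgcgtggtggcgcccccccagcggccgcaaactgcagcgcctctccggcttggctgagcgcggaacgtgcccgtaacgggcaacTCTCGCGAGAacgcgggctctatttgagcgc
Rpl27a (chr7:109518945-109519194, plus strand): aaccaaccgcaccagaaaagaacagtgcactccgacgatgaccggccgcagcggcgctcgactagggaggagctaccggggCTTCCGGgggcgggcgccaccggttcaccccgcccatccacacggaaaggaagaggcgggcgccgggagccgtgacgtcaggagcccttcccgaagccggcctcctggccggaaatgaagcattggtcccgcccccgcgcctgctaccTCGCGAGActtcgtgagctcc
Rpl7a (chr2:26910557-26910806, plus strand): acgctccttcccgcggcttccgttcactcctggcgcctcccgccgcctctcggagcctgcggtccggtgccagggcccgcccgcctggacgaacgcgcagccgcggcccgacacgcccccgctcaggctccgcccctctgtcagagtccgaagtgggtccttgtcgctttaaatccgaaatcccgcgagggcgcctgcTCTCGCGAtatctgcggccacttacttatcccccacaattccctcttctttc
Rps3a1 (chr3:86142669-86142918, minus strand): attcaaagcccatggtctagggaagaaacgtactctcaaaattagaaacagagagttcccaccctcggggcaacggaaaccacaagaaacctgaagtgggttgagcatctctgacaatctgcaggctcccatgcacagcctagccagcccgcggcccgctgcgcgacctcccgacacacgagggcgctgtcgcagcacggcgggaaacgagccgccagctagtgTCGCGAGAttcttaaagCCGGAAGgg
Rpl35 (chr2:39005132-39005381, minus strand): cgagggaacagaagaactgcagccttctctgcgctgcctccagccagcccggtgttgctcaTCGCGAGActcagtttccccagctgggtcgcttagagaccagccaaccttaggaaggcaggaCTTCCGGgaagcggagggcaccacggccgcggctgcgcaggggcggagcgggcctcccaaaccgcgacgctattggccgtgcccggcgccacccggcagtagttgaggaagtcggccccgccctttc
Rps15a (chr7:118116148-118116397, minus strand): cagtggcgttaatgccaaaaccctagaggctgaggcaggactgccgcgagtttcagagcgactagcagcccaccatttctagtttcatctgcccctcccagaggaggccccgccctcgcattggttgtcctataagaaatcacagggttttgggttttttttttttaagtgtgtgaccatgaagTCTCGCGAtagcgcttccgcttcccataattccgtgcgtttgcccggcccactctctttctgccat
Brd2 (chr17:34122608-34122857, minus strand): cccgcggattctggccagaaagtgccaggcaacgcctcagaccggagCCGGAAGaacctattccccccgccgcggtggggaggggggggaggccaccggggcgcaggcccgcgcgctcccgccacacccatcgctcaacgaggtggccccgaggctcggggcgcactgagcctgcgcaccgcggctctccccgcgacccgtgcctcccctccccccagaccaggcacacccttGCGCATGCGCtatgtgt
Lyz1 (chr10:117292869-117293118, minus strand): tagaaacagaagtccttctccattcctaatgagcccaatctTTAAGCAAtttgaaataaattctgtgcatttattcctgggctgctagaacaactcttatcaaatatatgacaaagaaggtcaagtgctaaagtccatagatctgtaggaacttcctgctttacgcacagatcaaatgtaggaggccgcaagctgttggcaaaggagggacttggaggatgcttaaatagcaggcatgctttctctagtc
Ctss (chr3:95526536-95526785, plus strand): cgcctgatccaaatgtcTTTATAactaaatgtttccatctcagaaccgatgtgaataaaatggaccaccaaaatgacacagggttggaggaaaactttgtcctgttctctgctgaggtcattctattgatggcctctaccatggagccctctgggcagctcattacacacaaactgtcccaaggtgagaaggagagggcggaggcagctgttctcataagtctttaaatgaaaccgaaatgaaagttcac

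All 7 ribosomal protein promoters shown hold the CGCG element, for which they were chosen. The share of all bound ribosomal protein promoters that hold it is not given here. Its first base lay 8 and 27 bases before the start in Rps19, 21 in Rpl27a, 26 in Rps3a1, 52 in Rpl7a, 66 in Rps15a and 189 in Rpl35. In Rpl10a the element and its overlapping copy on the other strand began 31 and 29 bases before the start. The Brd2 promoter, whose product is the protein under study, has overlapping NRF1 motifs 17 and 15 bases before the start and an ETS core further up. Lyz1, which encodes a lysozyme, and Ctss, which encodes the lysosomal protease cathepsin S, have 2 and 4 CpG dinucleotides in this window, against 27 in Brd2 and 13 to 30 in the ribosomal protein promoters, with the fewest in Rps15a and the most in Rpl7a. The C/EBP motif marked in Lyz1 and the TATA motif marked in Ctss begin 209 and 233 bases before the start.

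Both lists shared 270 regions, and each shared region of 1 list met 1 region of the other. They were 47.0% of the untreated regions (95% interval 42.9% to 51.2%, exact Clopper-Pearson, for counting error only) and 25.7% of the I-BET regions (23.1% to 28.5%). That left 304 untreated-side and 780 I-BET-side regions. The I-BET list is the longer by far, so a larger I-BET-side class follows in part from its length. The split was clean: no unmatched region had a region of the other list within 1 kb, and the nearest lay 1164 bp away. Within 100 kb, 59 of 304 untreated-side and 89 of 780 I-BET-side regions had one.

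Wider untreated regions were shared more often. With the untreated regions split into 4 equal groups by width, 38.9% of the narrowest group were shared (30.9% to 47.4%), and of the widest 55.6% (47.1% to 63.8%). In the I-BET list the shares were 18.3% (13.8% to 23.5%) in the narrowest group, 31.9% (26.3% to 37.9%) in the third and 29.0% (23.6% to 34.9%) in the widest. The authors' score showed no such order among untreated regions, with 44.1%, 53.2%, 42.3% and 48.6% shared from the lowest to the highest of 4 groups. Among I-BET regions the same shares were 22.1%, 24.0%, 25% and 31.9%, with overlapping intervals.

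At shared regions the footprint was much the same in both lists. The width in I-BET cells over that in untreated cells had a median of 1.08, with quartiles of 0.885 and 1.33, over the 270 pairs. The I-BET copy was the wider in 161 pairs and the narrower in 109, and 212 pairs lay within 1.5 times of equal width. At the median, 94.2% of the untreated region was covered by its I-BET partner. The smallest overlap was 250 bp.

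**Figure D1:**
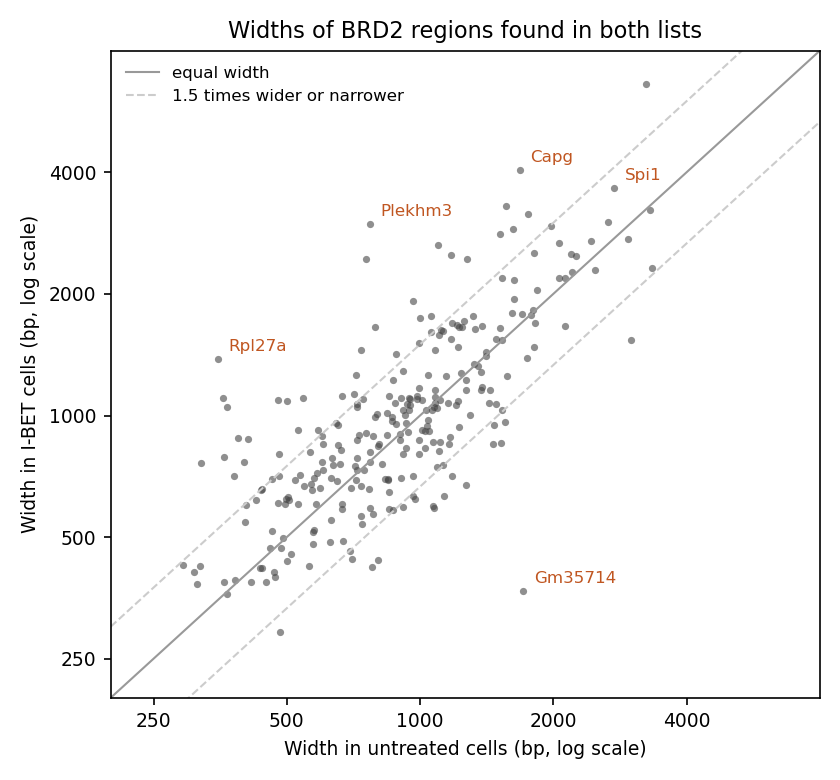
Width in base pairs of each of the 270 shared BRD2 regions in untreated cells (x axis) and in I-BET cells (y axis), both on log scales, with 1 point for each pair of regions. The solid line is equal width and the dashed lines are 1.5 times wider or narrower, between which 212 pairs lie. Rpl27a and Plekhm3 sit farthest above the line, and Gm35714 farthest below it.

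The 39 pairs over 1.5 times wider in I-BET cells included promoters and regions inside genes. The region at Rpl27a, a gene for a protein of the large ribosomal subunit, was 349 bp wide in untreated cells (chr7:109519207-109519555) and 1379 bp in I-BET cells (chr7:109518515-109519893). The I-BET region covers the listed start, and the untreated region begins just downstream of it. In Plekhm3, the region went from 770 bp to 2977 bp, and that at Cdc42se1 and Mllt11 from 755 bp to 2437 bp. A region in Capg, which encodes a protein that caps actin filaments and is abundant in macrophages, was 1683 bp (chr6:72549188-72550870) and 4049 bp wide. The shared region nearest to Lyz1, between genes, was 1099 bp and 2637 bp wide. Tnrc18 had the widest I-BET copy of all pairs, 6627 bp against 3241 bp.

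Pairs that were narrower in I-BET cells numbered 19 below the same bound. The smallest ratio, 0.215, was at the long noncoding RNA gene Gm35714, with 1712 bp and 368 bp. A region between genes, nearest to Nol4l, was 2991 bp and 1540 bp wide. Those at Tma16, Pnrc2, Kxd1, Mbtps2, Alyref with Anapc11, and Ss18 had ratios of 0.531 to 0.559.

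Genes were called bound when a region reached within 1 kb of either end. Of 21887 protein-coding genes, 494 (2.26%) were bound in untreated and 830 (3.79%) in I-BET cells. Both lists had 233 of them (1.06%), untreated cells alone 261 (1.19%) and I-BET cells alone 597 (2.73%). Genes bound in both were 47.2% of the untreated set (42.7% to 51.7%) and 28.1% of the I-BET set (25% to 31.3%). In 230 of the 233 the regions themselves overlapped. The other 3 were Cd68, Eif4a1 and Nfkbil1, whose regions lay at different places near the gene. Where neighbouring genes share a region both count, as Hspd1 and Hspe1, Rps18 and Vps52, or Brd2 and H2-DMa do.

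Among macrophage genes, 2 were bound in both lists, 2 in untreated cells alone and 9 in I-BET cells alone. Of the 11 in I-BET cells, 5 were left with the I-BET list cut by score to the untreated length and 10 with it cut by width. Counting only listed gene starts gave 4. The score of the I-BET list does not rank regions across chromosomes, as given below. Spi1 encodes PU.1, the transcription factor that sets up the macrophage fate. Its region was 2750 bp wide in untreated cells (chr2:91081805-91084554) and 3649 bp in I-BET cells (chr2:91081271-91084919), at the same end of the gene. Across the other lists it was 4851 bp wide with RANKL and 605 bp with RANKL and I-BET for BRD2. For BRD3 it measured 4010 bp untreated, 948 bp with I-BET and 6587 bp with RANKL, and it was not called with RANKL and I-BET. Spi1 was thus wide in the BRD2 I-BET list and narrow in the other I-BET lists that had it.

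Cd68, which encodes a lysosomal glycoprotein of macrophages, had an untreated region of 567 bp (chr11:69665541-69666107) and an I-BET region of 2022 bp (chr11:69662356-69664377) that do not touch. The first lies inside Cd68, reaches within 1 kb of Eif4a1 and was counted for both. Lyz1 and Cebpa, which encodes the myeloid transcription factor C/EBPα, were bound in untreated cells alone, with regions of 2066 bp (chr10:117291816-117293881) and 859 bp (chr7:35118070-35118928). Lyz1 still had the shared region near it described above.

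The 9 macrophage genes bound in I-BET cells alone carried mostly wide regions. The scavenger receptor gene Msr1 had 4027 bp (chr8:39640691-39644717), the CSF-1 receptor gene Csf1r 3313 bp and the lipopolysaccharide co-receptor gene Cd14 2630 bp. Tlr2, a receptor for bacterial lipoproteins, had 2377 bp (chr3:83839319-83841695), and Ncf1, a subunit of the NADPH oxidase, 2273 bp (chr5:134227622-134229894). Mpeg1, Laptm5, Itgb2 and Ctss had regions of 2018 bp, 1842 bp, 1632 bp and 623 bp. None of the 9 was in the BRD3 I-BET list, while 5 were in the BRD3 list of untreated cells (Msr1, Csf1r, Mpeg1, Laptm5 and Ctss). In counts over the whole list of 35, BRD3 had 11 genes in untreated cells and 1 with I-BET, in lists that reached 14% and 9.73% of all coding genes. BRD2 had 10 with RANKL and 3 with RANKL and I-BET, against 6.21% and 0.978% of all genes.

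Cytosolic ribosomal protein genes had the highest share bound of the 31 gene lists, in both conditions. Of 84 such genes 23 were bound in untreated cells (27.4%) and 35 in I-BET cells (41.7%), against 2.26% and 3.79% of all genes. By class, 14 were bound in both, 9 in untreated cells alone and 21 in I-BET cells alone. At equal list length the I-BET count was below the untreated 23, at 18 with the I-BET list cut by score and 17 by width. Such cuts make counts smaller by construction. The score does not rank regions across chromosomes, as given below, and a cut by width drops the narrower regions. Whether list length accounts for the larger I-BET count was not tested. Rpl13a was 1117 bp and 1624 bp wide, Rpl3 915 bp and 1291 bp, and Rps7 984 bp and 1100 bp. Rps18 (992 bp), Rpl37 (905 bp), Rps3a1 (835 bp) and Rps28 (693 bp) were the widest of those in untreated cells alone. Among those in I-BET cells alone were Rack1 (1894 bp), Rps12 (1626 bp) and Rpl4 (1180 bp). Ribosomal protein genes have processed copies elsewhere in the genome, and the sources used here do not say how reads with several matches were treated.

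Other growth genes were also bound more often in I-BET cells alone than in untreated cells alone, as were coding genes at large. Over all coding genes 1.06% were bound in both, 1.19% in untreated and 2.73% in I-BET cells alone. Mitochondrial ribosomal protein genes numbered 6 in both, 3 in untreated and 11 in I-BET alone, of 78. Here too the I-BET count of 17 fell below the untreated 9 at equal list length, to 8 by score and 5 by width. Mrps18b, at 1372 bp and 1282 bp, was the widest in both lists, and Mrps18a went from 366 bp to 1050 bp. Of 36 genes of the MYC network and growth list, 4 were bound in both, 2 in untreated and 4 in I-BET cells alone. Those in both were Eif4a1, Nop56, Eif4e and Mybbp1a. Ran (1299 bp), which drives nuclear transport, and Cdk4 (1097 bp), a kinase of the cell cycle, were bound in untreated cells alone. Ppan (1801 bp) and Wdr43 (734 bp), both needed for making ribosomes, and the chaperonin pair Hspd1 and Hspe1 (1028 bp) were bound in I-BET cells alone. Translation factor genes were 4, 3 and 8 of 63, and those of the spliceosome and hnRNP list 8, 6 and 12 of 83, in the same order. Hnrnpa2b1, which shares its region with Cbx3, was 2203 bp and 2264 bp wide.

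Some lists leaned to one class in small numbers. The shares of all coding genes were 1.06% in both, 1.19% in untreated and 2.73% in I-BET cells alone. Of 49 proteasome genes 1 was bound in both (Psmd14), 1 in untreated cells (Psmg3) and 8 in I-BET cells alone, among them Psmc5, Psme3, Psmb2 and Psmd5. Of 89 oxidative phosphorylation genes 2, 1 and 8 were. Of 46 Mediator and Integrator genes none was bound in both, 5 in untreated cells alone and 3 in I-BET cells alone. The 4 widest of those 5 were Ints6 (1306 bp), Ints3 (1116 bp), Ccnc (936 bp) and Ints12 (926 bp). Among 42 chromatin modifiers, Kat6a was bound in both, Setd1b, Arid1a and Brpf3 in untreated cells alone, and Eed, Smarca4, Kat7 and Taf4 in I-BET cells alone. None of these counts is large enough to read a direction from.

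Genes that carry the BET and elongation machinery were bound in small numbers, 2 of 29 in untreated and 3 in I-BET cells. None of the 3 was left in the I-BET list cut by score to equal length. All 3 lie outside the stretches of raised score described below, so this cut cannot weigh their calls. Cdk12, a kinase of the RNA polymerase II tail, was in both with 1062 bp and 1032 bp and in none of the 6 other lists. Ccnt2, the cyclin partner of the elongation kinase CDK9, was bound in untreated cells alone (303 bp). Brd2 itself was bound in I-BET cells alone, over a region of 3755 bp (chr17:34119227-34122981) that reaches H2-DMa. That region was called in every list but the untreated BRD2 list. Hexim1, which encodes an inhibitor of that kinase, was bound in I-BET cells alone (1300 bp), and its region overlapped a region of each of the 6 other lists. In BRD2 with RANKL and I-BET no region reached within 1 kb of an end of Hexim1, so the gene did not count as bound there.

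Few signalling and response genes were bound. The RANK and NF-kB list reached 6.25% in untreated and 9.38% in I-BET cells, on 2 and 3 genes, against 2.26% and 3.79% of all genes. Of its 32 RANK and NF-kB genes, Nfkb1 was bound in both lists with 1112 bp and 1095 bp, Tab1 in untreated cells alone (708 bp) and Rel (885 bp) and Nfkbiz (632 bp) in I-BET cells alone. Klf6 was the 1 immediate-early gene of 28, and Irf2 the 1 interferon gene of 27, both in I-BET cells alone and near the share of all genes, at 3.57% and 3.70%. None of 30 osteoclast genes and none of 28 inflammatory genes was bound in either list, which allows a share of up to 11.6% and 12.3% (upper exact bounds). Of 13 genes listed here as negative regulators of osteoclast formation, Zeb2 was bound in both and Cebpa in untreated cells alone. Nrf1 and Lilrb4a were bound in I-BET cells alone. That list was at 15.4% in untreated and 23.1% in I-BET cells, on 2 and 3 genes, against 2.26% and 3.79% of all genes. What each of its genes does in osteoclast formation was not checked.

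**Figure D2:**
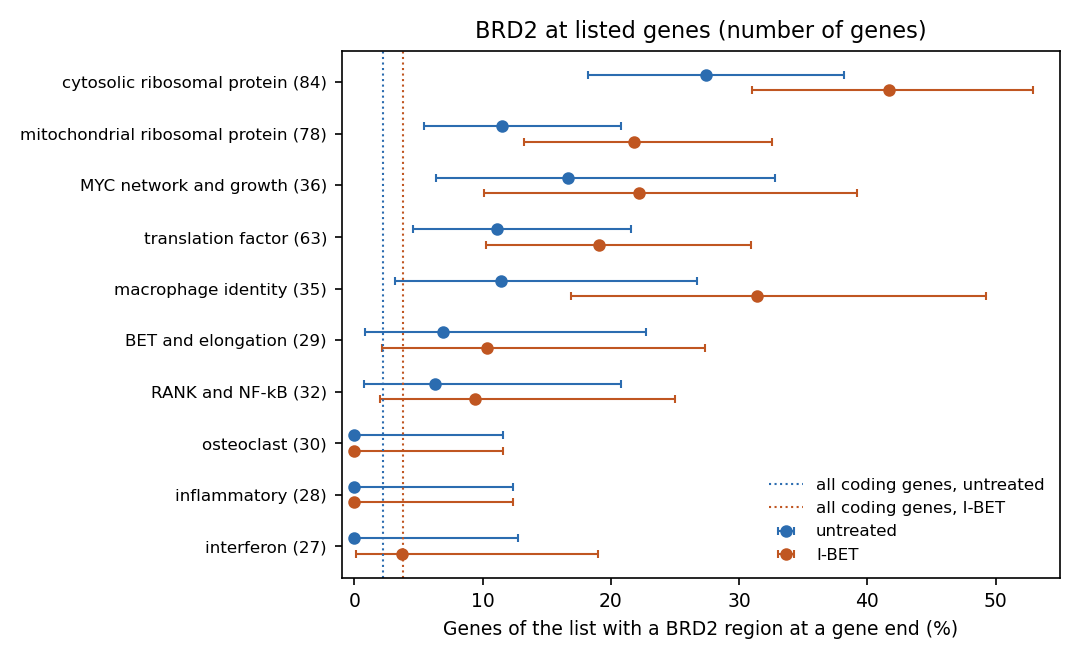
Percent of the genes of each list with a BRD2 region within 1 kb of a gene end in untreated cells (blue) and I-BET cells (orange), with the number of genes in brackets and exact 95% intervals for counting error as bars. Dotted lines give the share of all protein-coding genes, 2.26% and 3.79%. Ribosomal protein and macrophage genes lie above these lines, and the osteoclast and inflammatory lists are at 0 in both.

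Over all coding genes 1.06%, 1.19% and 2.73% were bound, in the order both, untreated alone and I-BET alone. Further lists gave small counts too, in the same order. They were 2, 0 and 3 of 37 aminoacyl-tRNA synthetases, 0, 2 and 5 of 53 DDX and DHX helicases, and 5, 2 and 6 of 82 chaperones. Zinc finger genes were 4, 7 and 15 of 461. Their shares of 2.39% in untreated and 4.12% in I-BET cells were near the 2.26% and 3.79% of all genes. Lysosome and V-ATPase genes were 1, 0 and 4 of 63, RNA polymerase genes 1, 1 and 0 of 28, and Rab and vesicle genes 2, 3 and 8 of 161. Of 64 replication-dependent histone genes only H4c14 was bound, in untreated cells (1397 bp), a share of 1.56% against 2.26% of all genes. BRD3 in untreated cells was at 49 of the 64, in a list that reached 14% of all genes.

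Among the widest regions of the untreated-side class were those at Lcp1, the gene for the actin-bundling protein L-plastin (3608 bp, inside the gene), at Setd1b and Rhof (3383 bp) and at Hmga1 (2662 bp). Others were at Arid2 (2375 bp), Pfn1 (2341 bp), Etv1 (2282 bp), Gtf2a1 (2248 bp) and Pcbp1 (2239 bp). The widest I-BET-side regions were broader. One of 7939 bp covered an end of the noncoding RNA gene Neat1 and stopped 825 bp from Frmd8 (chr19:5842211-5850149). Next came Ccnd1, the gene for cyclin D1, with 5777 bp (chr7:144937747-144943523). Cd300lb, an activating receptor gene of myeloid cells, had 4844 bp, and Ncf4, another NADPH oxidase subunit, 4047 bp. Mef2d (3648 bp) and Gpr183 (3506 bp) were also among the wide ones. Of genes in both lists but no gene list, Tgif1 (3339 bp and 2316 bp), Cyth4 (2660 bp and 3007 bp), Cd180 (2439 bp and 2697 bp) and E2f3 (2192 bp and 2507 bp) were among the widest. No gene held 3 regions of a list, and 7 genes in untreated and 14 in I-BET cells held 2, with Zeb2 in both groups.

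The 6 lists not used to form the classes were then read at these regions. Shared regions were found again most often in BRD2 with RANKL, at 63.3% (57.3% to 69.1%), followed by untreated-side regions at 50.7% and I-BET-side regions at 44.4% (40.8% to 47.9%). In BRD2 with RANKL and I-BET, a list of 245 regions, the shares were 31.5% (26.0% to 37.4%), 10.9% and 8.46%. There the shared class was well above both others, whose intervals overlap each other. In untreated BRD3, shared and untreated-side regions were found alike, at 54.1% and 54.6%, and I-BET-side regions less often, at 42.2% (38.7% to 45.7%). In BRD3 with I-BET the shares were 23.7%, 23.7% and 19.2%, with overlapping intervals, so that a region of the BRD2 I-BET list was no more often in the BRD3 I-BET list than a region of the untreated list. These lists differ in length, so shares compare between classes and not between lists.

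**Figure D3:**
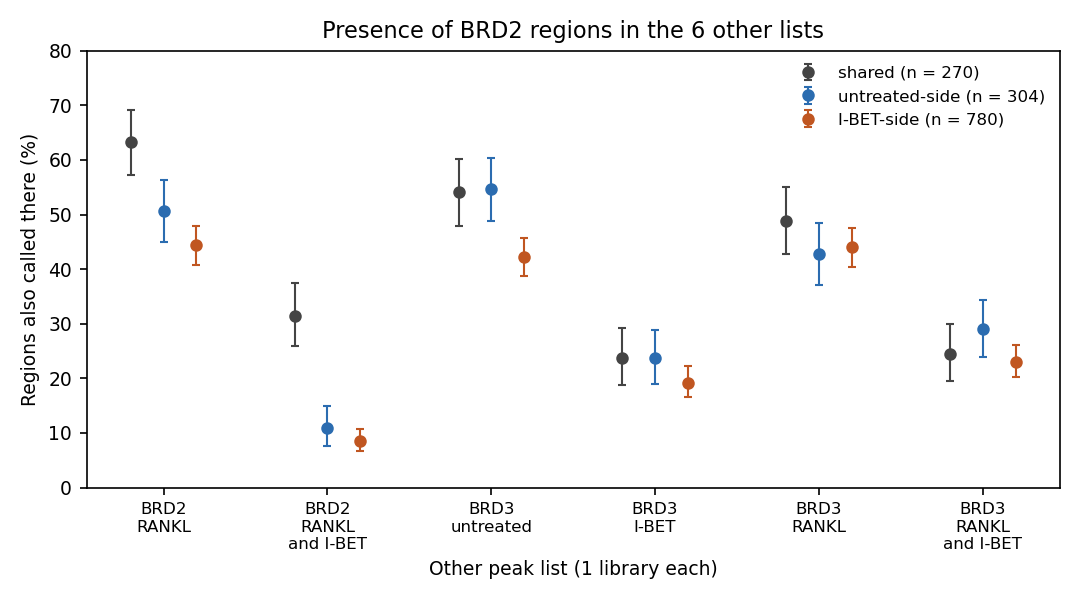
Percent of shared (grey), untreated-side (blue) and I-BET-side (orange) BRD2 regions that overlap a region of each of the 6 other lists, with exact 95% intervals for counting error. The shared class stands above the others in both BRD2 lists, at 63.3% and 31.5%, and the 3 classes lie close together in the BRD3 I-BET list.

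Calls made without I-BET and again with it were counted in each class. Of regions called for BRD3 in untreated cells, 37.0% of 146 shared, 38.6% of 166 untreated-side and 38.6% of 329 I-BET-side regions were also called for BRD3 with I-BET. Under RANKL the same step for BRD3 gave 45.5% of 132 shared (36.8% to 54.3%), 60.8% of 130 untreated-side (51.8% to 69.2%) and 47.8% of 343 I-BET-side regions (42.4% to 53.2%). For BRD2 under RANKL it gave 33.9% of 171 shared (26.9% to 41.5%), 15.6% of 154 untreated-side and 14.2% of 346 I-BET-side regions. Regions in all 6 other lists numbered 11, 5 and 13. The 11 shared ones included Ptma, Ncor1 with Pigl, Kansl1, Rps10, Rprd2, Tardbp and Mtg1. The 13 I-BET-side ones included Brd2, Hexim1, Eed, Mef2a and Rpl14. Regions in none of the 6 were 32 shared (11.9%), 60 untreated-side (19.7%) and 205 I-BET-side (26.3%). Such regions at Etv1, Polr3e, Ncf1 and Tln1 rest on a single list of the series.

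Width separated the BRD3 calls. Among I-BET-side regions under 1000 bp, 35.5% were in untreated BRD3 and 20.3% in BRD3 with I-BET. Among the 53 of at least 2000 bp, 30 were in untreated BRD3 (56.6%, 42.3% to 70.2%), 32 in BRD3 with RANKL (60.4%) and 6 in BRD3 with I-BET (11.3%, 4.27% to 23.0%). The 2 bins were taken as round numbers after the values had been seen. Frmd8, Ccnd1, Cd300lb, Msr1 and Mef2d had BRD3 regions of 6435 bp, 4563 bp, 4367 bp, 3109 bp and 2488 bp in untreated cells and none with I-BET. The BRD3 I-BET list holds few wide regions anywhere, as given above. Wide shared regions had a like split, with 14 of 16 in untreated BRD3 and 3 of 16 in BRD3 with I-BET, as had wide untreated-side regions, with 15 and 5 of 16.

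**Figure D4:**
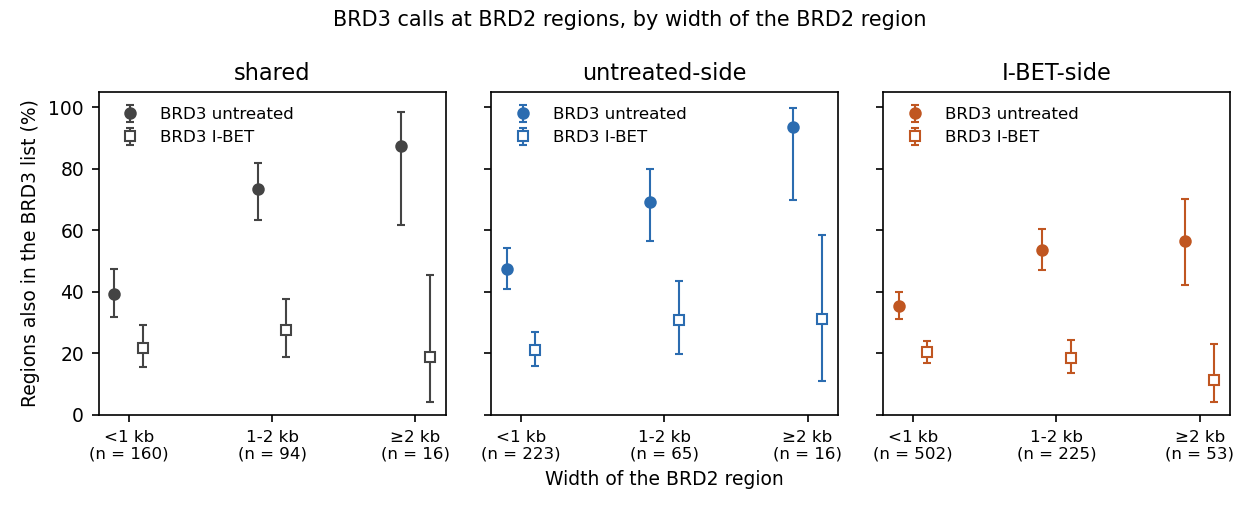
Percent of BRD2 regions that overlap a BRD3 region of untreated cells (filled circles) or of I-BET cells (open squares), by width of the BRD2 region and by class, with exact 95% intervals for counting error and the number of regions under each bin. The gap between the 2 BRD3 lists is widest for regions of at least 2000 bp, as in the I-BET-side class with 56.6% against 11.3%.

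Position in the genome differed between the classes. Each region was placed by its midpoint, at a gene end when no more than 1 kb from either end of a coding gene. Gene ends held 68.9% of shared (63.0% to 74.4%), 69.7% of untreated-side (64.2% to 74.9%) and 57.7% of I-BET-side regions (54.1% to 61.2%). Regions between genes were 13.0%, 12.8% and 20.1% (17.4% to 23.1%). The remainder lay inside genes, at 18.1%, 17.4% and 22.2%. Between genes, I-BET-side regions were in untreated BRD3 at 43.3% and in BRD3 with I-BET at 6.37% (3.10% to 11.4%), and at gene ends the shares were 43.1% and 26.4%.

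Promoters under the regions were mostly CpG-rich in every class, among the starts listed in the promoter table. CpG-rich promoters, with 15 or more CpG in 250 bases, made up 70.5% of the 217 promoters bound in both, 68.3% of 249 in untreated cells alone and 66.7% of 529 in I-BET cells alone, against 36.7% of all 21263. Promoters are counted by listed start, so a gene with several starts counts several times. The CGCG element stood in 9.68% (6.09% to 14.4%), 6.02% (3.41% to 9.74%) and 5.67% (3.86% to 8%) of them, against 1.23% of all promoters and 2.76% of all CpG-rich ones. The ETS core stood in 23.0%, 21.7% and 21.4%, against 8.98% and 16.2%. Taken over CpG-rich promoters alone, the ETS core was in 26.8%, 27.6% and 23.5% of the 3 classes. The NRF1 motif was in 6.54% (3.18% to 11.7%), 5.29% (2.45% to 9.81%) and 9.92% (7% to 13.5%) of CpG-rich promoters of the classes, against 5.50% of all CpG-rich promoters. The I-BET-alone interval lies above that share, and the intervals of the 3 classes overlap. The PU.1 motif GAGGAAGT was in 5.23%, 1.76% and 4.82% of the CpG-rich promoters of the classes, against 1.82% of all CpG-rich promoters. Its intervals for promoters bound in both and in I-BET cells alone (2.83% to 7.60%) lie above that share. Over all promoters of the classes, only its I-BET-alone interval (2.93% to 6.68%) lay above the 2.23% of all promoters. The PU.1 intervals of the 3 classes overlap in each count. The SP and KLF motif GGGCGGGG was in 27.5%, 32.4% and 30.0% of the CpG-rich promoters of the classes, below the 41.4% of all CpG-rich promoters. The YY1 motif was in 5 (2.3%), 7 (2.81%) and 3 (0.567%) promoters, against 0.390% of all, with overlapping intervals. A match describes letters and says nothing of which factor was there.

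Scores in the I-BET list were uneven along the genome. On chromosome 9 the 89 I-BET regions had a median score of 205 and none under 97.0, against a median of 39.8 for the 30 untreated regions there. Chromosome 14 from 20 to 60 Mb (20 regions) had a median of 266 and chromosome 2 from 150 to 180 Mb (32 regions) one of 135, while the rest of the I-BET list had 43.0. These stretches were picked after the scores had been seen. BRD2 with RANKL had medians of 44.0, 39.0 and 44.0 there. BRD2 with RANKL and I-BET had 64.8 on 8 regions in the chromosome 2 stretch, against 40 outside the stretches. They held 94 of the 100 highest-scoring I-BET regions, so the score of this list does not rank regions across chromosomes. Chromosome 9 also had 2.97 I-BET regions for each untreated region, against 1.75 outside these stretches. Chromosomes 19 and X, without raised scores, had 3.57 and 4.67 on 7 and 3 untreated regions. Among the genes named above, Ppan, Rpl4 and Smarca4 lie on chromosome 9. So do Eef1a1 of the translation factor list and Sdhd of the oxidative phosphorylation list, both bound in I-BET cells alone. Outside the stretches 45.1% of untreated (40.7% to 49.5%) and 25.7% of I-BET regions were shared. Inside them 65.5% of the 55 untreated regions (51.4% to 77.8%) and 25.5% of the 141 I-BET regions were. The part of these scores in the calls was not tested.

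**Figure D5:**
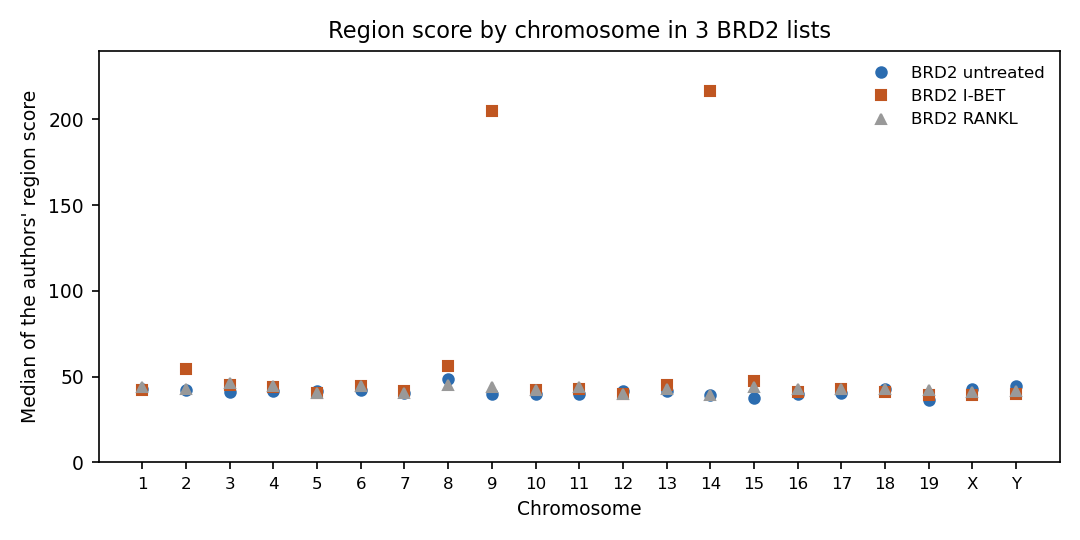
Median of the authors' region score on each chromosome in the BRD2 lists of untreated (blue circles), I-BET (orange squares) and RANKL cells (grey triangles). Chromosomes 9 and 14 stand out in the I-BET list, at 205 and 216.5, while the other medians of these lists lie below 60.

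The regions set apart were 4 in the untreated and 17 in the I-BET list. The 2 on chromosome M, at positions 2 to 6199 and 11092 to 16287, were in the I-BET list alone. Of the wide ones, 1 untreated and 5 I-BET regions lay over 100 kb from every protein-coding gene. Both lists had one at a copy of ribosomal DNA on chromosome 17 (Rn18s-rs5), 5464 bp and 5934 bp wide. The other 4, on chromosomes 2, 9, 14 and 16, were in no other list of the series, and that on chromosome 9 spanned 38569 bp. The same rule took out some single-copy loci nearer to genes, such as the noncoding RNA gene Malat1, where the I-BET region was 4698 bp wide and was called in all 6 other lists.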

How the data were processed

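ChIP-seq of BRD2 and BRD3 was done by the authors in RAW264.7 cells. Per the labels' protocols, cells were fixed for 15 min in 1% formaldehyde and sequenced as single-end reads of 50 bp. The submitters' processing notes name MACS2 2.1.1.20160309 and Bowtie2 2.3.4.1, FastQC, and GRCm38 (mm10), and no settings. The 4 input libraries have no peak list and were not analysed here. In the deposited lists, each line gives a region, the peaks joined into it and a score, which behaves as a mean over the joined peaks. Per the names in the deposited files, 99.1% of untreated and 98.4% of I-BET regions join exactly 3 peaks, which come from sets called 3, 5 and 7. The sources used here do not explain these numbers, and the depth is unknown.

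Regions were overlapped at 1 bp with Python 3.11.15, pandas 2.3.3 and SciPy 1.17.1, with positions counted from 1. The overlap code was tested on simulated intervals. Gene ends came from a RefSeq table of GRCm38.p6, without strand or exons, so exons, introns and UTRs were not told apart. The 31 gene lists held 1789 members and 1 sought gene was not matched. The regions compared and the gene lists were chosen with earlier results of these data known, and some name patterns and the motifs were revised once the files were open. Named were all bound members of the macrophage, osteoclast, signalling, BET and MYC lists, up to 4 of the widest per class in the other lists, the widest genes in no list, the 8 largest and 8 smallest width ratios, and the 5 widest regions per class. Further genes named for their lists of origin (regions in all or none of the other lists) and the promoters printed were chosen after their values were seen. Some named regions are not reported here.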

Additional observations from a re-analysis of the deposited data

Results flagged for a closer look

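Signal outside the regions compared was flagged in the I-BET list. It held 2 regions on chromosome M, and the untreated list and the 6 other lists held none. It also held 5 regions over 3000 bp wide that lay over 100 kb from every protein-coding gene, against 1 in the untreated list. Of these 5, the one at ribosomal DNA was in both lists, and the other 4 were in no other list.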

How the results depend on the processing

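No paired analysis was possible because each group holds 1 library, and no library could be left out. In all, 480 values were recomputed under 14 alternatives, 2 of them chosen after seeing the data, and 418 stayed within their interval or, for counts and the width ratio, within 1.5 times. Every value did so with an overlap of at least 50% of the shorter region, with matching within 1000 bp, with the regions set apart kept in or limited to those over 100 kb from genes, with regions joining exactly 3 peaks, and without the stretches of raised score. Several of these settings could change the classes little. Only 1 pair overlapped by less than 50% of the shorter region, and no unmatched region had a partner within 1000 bp. Regions joining exactly 3 peaks were 99.1% of the untreated and 98.4% of the I-BET list.

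Shortening a list removes regions, and the counts that follow from it are smaller by construction. With the I-BET list cut to the untreated length by score, 28.4% of untreated regions (163) were shared and 411 were I-BET-side. Genes bound in both were then 131 and in I-BET alone 321, the I-BET list held 5 macrophage, 18 cytosolic and 8 mitochondrial ribosomal protein genes and 0 BET and elongation genes, and 15.8% of untreated-side regions were in BRD2 with RANKL and I-BET. Cut by width, 29.4% of either list (169) was shared and 405 were I-BET-side, 147 genes were bound in both and 297 in I-BET alone, with 17 cytosolic and 5 mitochondrial ribosomal protein genes. Of shared regions 65.1% were then in untreated BRD3 and 59.8% in BRD3 with RANKL. I-BET-side regions were in BRD2 with RANKL at 49.6%, in untreated BRD3 at 53.1%, in BRD3 with RANKL at 54.8% and at gene ends at 51.6%. In the top 50% of each list by score, 27.9% of untreated (80) and 15.2% of I-BET regions were shared, 445 were I-BET-side, and 60, 165 and 349 genes were bound in both, untreated alone and I-BET alone. There 61.2% of shared regions lay at gene ends and 13.7% of I-BET-side regions were in BRD2 with RANKL and I-BET. Macrophage genes numbered 4 in the I-BET list. Cytosolic ribosomal protein genes were 12 and 15, mitochondrial ones 5 and 6, and BET and elongation genes 1 and 0, in untreated and I-BET cells.

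A reciprocal overlap of 50% made 42.9% of untreated regions shared. The same stricter rule was applied to the match with each of the 6 other lists, so fewer overlaps counted there too. Shared regions were then in BRD2 with RANKL at 56.1%, in BRD2 with RANKL and I-BET at 25.2%, in BRD3 with RANKL at 40.2% and in BRD3 with RANKL and I-BET at 16.7%. Untreated-side regions were in BRD2 with RANKL and in untreated BRD3 at 42.7% each, in BRD3 with I-BET at 13.7%, with RANKL at 29.6% and with both at 14%. For I-BET-side regions these were 37.3% and 31.7%, then 12.9%, 31.3% and 13.9%. With regions of at least 500 bp alone, 12 cytosolic ribosomal protein genes and 1 BET and elongation gene were bound in untreated cells. Windows of 5 kb put 80.4%, 80.9% and 71.7% of shared, untreated-side and I-BET-side regions at gene ends. In a separate alternative, whole gene bodies were used in place of windows at the ends. There 64.1% of untreated-side regions had their midpoint anywhere inside a coding gene, parts near its ends included. Counting only starts in the promoter table, 4 macrophage genes were bound in I-BET cells. The cause of these shifts, other than shorter lists, stricter matching and other windows, was not tested. Depth is unknown, so a missing call cannot be weighed.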

Other observations

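Noncoding genes were not part of the comparisons. Regions within 1 kb of an end of a long noncoding RNA gene numbered 39 of 270 shared (14.4%), 42 of 304 untreated-side (13.8%) and 126 of 780 I-BET-side regions (16.2%). The shared ones include Lncpint and Zeb2os. Regions at microRNA genes numbered 3 in each class, and those at tRNA genes 1, 2 and 1.

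Regions without a BRD3 call in untreated cells numbered 124 shared, 138 untreated-side and 451 I-BET-side. Of these, 10 (8.06%), 8 (5.80%) and 23 (5.10%) were called for BRD3 with I-BET, with overlapping intervals. The 10 shared ones lay at Hspa4, Mybbp1a, Hspa9, Gabpb1, Eif4e, Rabggtb, Lrrc8b, Rpl5 and Ccdc91, and at Fam227b with Dtwd1. Hspa4 and Hspa9 encode chaperones of the heat shock protein 70 kind.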
